A study of Homo sapiens with 6 samples.

Results

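Translation factors are the proteins that carry a ribosome through the start of an mRNA and along its coding sequence. The human genes for initiation factors (EIF) and elongation factors (EEF) were taken as all RefSeq protein-coding genes whose symbol begins with either prefix followed by a digit, which gave 70 of 20037 protein-coding genes. The rule used names only and no measured value. The measurements were RNA immunoprecipitation sequencing (RIP-seq) peaks for SmD2, the product of SNRPD2, from HEK293T cells, an established human embryonic kidney line. There were 3 samples that overexpress SNRPD2 (genotype label SNRPD2OE, replicates 1, 2 and 3) and 3 control samples (Ctrl), which were not analysed here. The study asks how SmD2 interacts with pseudouridine-modified RNA. Nothing in the labels tells whether separate cultures were used for the replicates, so the spread between them may be technical, and the library text describes total RNA after ribosomal RNA depletion without describing the immunoprecipitation. With 1 group there was no comparison between conditions: the factor genes were set beside all protein-coding genes, with no p-value.

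Initiation begins when eIF2, bound to GTP, brings the initiator tRNA to the small ribosomal subunit together with eIF1, eIF1A, eIF5 and the large eIF3 complex. The cap-binding eIF4E, the scaffold eIF4G and the helicase eIF4A recruit this assembly to the mRNA, it scans to a start codon, and eIF5B joins the large subunit. During elongation eEF1A delivers aminoacyl-tRNAs and eEF2 moves the ribosome by 1 codon. SmD2 is a subunit of the Sm ring, the protein ring on spliceosomal small nuclear RNAs. Several translation factor genes carry small nucleolar RNA (snoRNA) genes in their introns, and many of their mRNAs start with a terminal oligopyrimidine tract, a C followed by other pyrimidines, through which mTOR and LARP1 control translation.

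The lists held 30111, 160931 and 65097 peaks in replicates 1, 2 and 3. Peaks of at most 1000 bp, called narrow here, numbered 30109, 160931 and 15813, so that nearly all of the wide peaks were those of replicate 3. The number of reads at a summit was recovered from each peak's deposited fold and p-value, and the caller's expected number is called the background. A single read was enough for 71.4% of narrow peaks in replicate 2, for 5.47% in replicate 3 and for none in replicate 1. The most reads at any summit were 78, 80 and 78, against smallest peak widths of 39, 40 and 39 bp, and whether read numbers have a ceiling there was not tested. Peaks from a transcript that is abundant and from one that is preferentially recovered cannot be told apart in these lists. The files give no library totals, so the depth is unknown. Peak lists hold no expression levels, so the cell line's identity was not checked against markers.

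The start of the mRNA is shown first for the factor genes with a pyrimidine tract, because tract starts are known from many mRNAs of the translation machinery. For 53 of the 70 genes RefSeq (GRCh38.p14) gave a start at the 5′ end of the gene span. A tract, defined as C at the first transcribed base and pyrimidines after it for at least 5 bases in all, was present at 12 of the 53 starts (22.6%), against 632 of 13819 starts of all protein-coding genes (4.57%). The call rests on the annotated first base, so a start used a few bases away could change it. The first 30 transcribed bases follow for 11 of them, 5′ to 3′, with the tract in capitals. EIF2S3B has the same first 30 bases as EIF2S3 and is not repeated.
EEF1A1: CTTTTTCgcaacgggtttgccgccagaaca
EEF2: CTCTTCCgccgtcgtcgccgccatcctcgg
EIF2A: CTCTTTCCgggacaacatggcgccgtccac
EIF2D: CCTTTTCgcggccgggccccagcatggctg
EIF2S3: CTCTTTTggcaacatggcgggcggagaagc
EIF3D: CTCTTTTCCTggtttctcaagagtgctgct
EIF3F: CTTCTTTCTCgacaagatggccacaccggc
EIF3K: CTCTTCCTgttcccgtccttgaggacgccg
EIF3M: CTTTTCCggtcggcgtggtcttgcgagtgg
EIF4A2: CTTTTCagtcgggcgctgagtggtttttcg
EIF4B: CTTTTgcgttctctttccctctcccaacat
The annotated starts of EIF1AX, EIF5 and EIF4G2 have no tract by this definition, and these are 3 of the genes in which all the lists placed a peak close to the 5′ end.
EIF1AX: gccatttgctgccgccgagcgtggacgcag
EIF5: agtcagagcgagaacattccagaggtgagt
EIF4G2: gccagcagtgagtcggagctctatggaggt

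Of the 12 genes with a tract, 8 had a narrow summit in every list and 2 had a site shared by all lists (EIF3D and EIF3F). Of the 41 genes with another start, 21 had a summit in every list and 8 a shared site. Over all 70 factor genes 60% had a summit in every list and 20% a shared site, against 23.8% and 7.44% of all protein-coding genes. The difference between the start types was not tested. Over the genes with a summit, the median of the most reads at a summit was 27, 32 and 24 in replicates 1, 2 and 3 for tract genes, against 17, 17.5 and 13.5 for the others. The median background at the strongest peak was 6.67, 13.5 and 0.769 reads for tract genes, against 3.34, 2.26 and 0.769 for the others, so the background was also higher in replicates 1 and 2. EEF1A1, which delivers aminoacyl-tRNA to the ribosome and has a tract, had no summit of any width in any list. A peak needs reads above the caller's background, so a lack of peaks does not show a lack of reads, and the reason was not tested. A search of the first 50 transcribed bases, on the transcribed strand only, for TGTAA or TGTAG, the letters at which the pseudouridine synthase PUS7 is known to act, found 1 or both in 2 of the 53 starts (3.77%), EIF2B5 and EIF5A2, against 475 of 13819 starts (3.44%) of all protein-coding genes.

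Narrow summits in the factor genes numbered 157, 431 and 126 in replicates 1, 2 and 3, of which 157, 427 and 122 lay outside snoRNA genes. At least 1 such summit was found in 50, 64 and 50 of the 70 genes (71.4%, 91.4% and 71.4%), against 45.2%, 76.7% and 30.2% of all protein-coding genes. The share was higher in the factor genes in each list. In all 3 lists 42 genes had a summit (60%), against 23.8% of all protein-coding genes; 14 genes had one in exactly 2 lists, 10 in exactly 1, and 4 in none. These 4 were EEF1A1, EIF1AY (an eIF1A gene on chromosome Y), EIF4E1B (a relative of the cap-binding protein) and EIF4EBP3 (a binder of eIF4E). Whether the cells carry chromosome Y was not tested, so nothing can be read from the lack of a summit in EIF1AY. Over all lists together 66 genes had a summit, while the background for any list was 79.1%.

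The factor genes were not longer than others: they had a median span of 20500 bp, against 24100 bp for all protein-coding genes, and held 6.56, 17.8 and 5.1 summits per 100 kb, against 2.12, 8.99 and 1.14. Their peaks were also taller. The median summit held 14, 5 and 13 reads in the factor genes, against 5, 1 and 7 in all protein-coding genes, and the median background was 3.34, 0.903 and 0.922 reads, against 0.195, 0.0722 and 0.307. Reads and background were thus both higher in the factor genes. Among genes with a narrow peak of at least 10 reads, 35, 44 and 38 were factor genes (50%, 62.9% and 54.3% of 70), against 14.2%, 15.9% and 12.9% of all protein-coding genes. After the caller's own correction (deposited q-value under 0.05) the counts were 4, 31 and 8 genes (5.71%, 44.3% and 11.4%), against 5.18%, 18.2% and 2.75%. In replicate 1 that share was near the background of all genes, and no factor gene passed this threshold in all 3 lists. How many of all protein-coding genes did so was not counted.

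**Figure D1:**
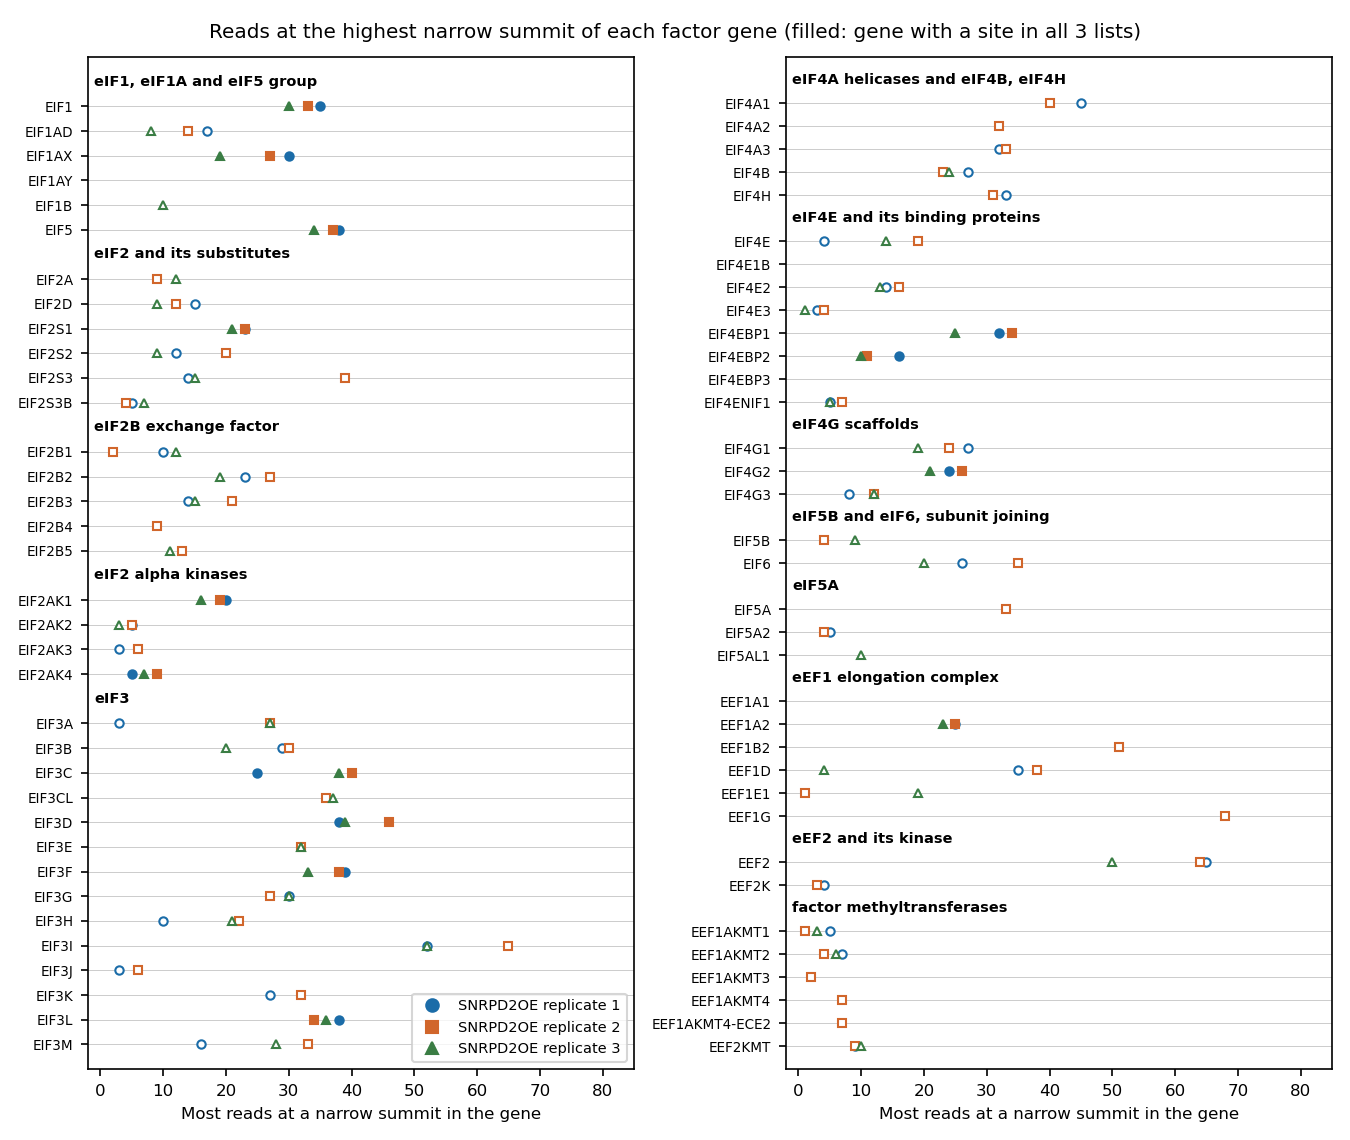
Most reads at a narrow summit outside snoRNA genes (x axis, reads) for each of the 70 factor genes, grouped by complex, with 1 symbol per replicate and filled symbols for genes with a site shared by all 3 lists. EEF2, EEF1G, EIF3I and EEF1B2 hold the values of 50 reads and more, and the kinase and methyltransferase genes stay at or below 20 reads.

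Agreement between lists was measured by overlap of at least 1 bp. Of the narrow peaks of replicate 1 in the factor genes, 44.6% overlapped a peak of replicate 2 and 22.9% one of replicate 3, against 35.0% and 14.4% in all protein-coding genes. Of those of replicate 2, 16.6% overlapped replicate 1 and 11.2% replicate 3, against 8.31% and 4.45%. Of those of replicate 3, 29.5% overlapped replicate 1 and 38.5% replicate 2, against 27.2% and 35.2%. All of these shares were higher in the factor genes. For peaks of at least 10 reads, set against all narrow peaks of the other list, the order changed: 54.8% of replicate 1's peaks overlapped replicate 2, against 47.8% in all protein-coding genes, while the other 5 shares were 22.0% to 44.9% in the factor genes, against 32.9% to 47.4%, and each was lower in the factor genes. Overlapping peaks were then chained into sites. The factor genes held 565 sites, of which 445 (78.8%) came from 1 list, 102 (18.1%) from 2 and 18 (3.19%) from all 3, against 89.6%, 8.97% and 1.44% of the sites in all protein-coding genes. The 2-list sites joined replicates 1 and 2 in 52 cases, 1 and 3 in 19, and 2 and 3 in 31. The 18 shared sites lay in 14 genes (20% of 70), against 7.44% of all protein-coding genes. With the lists cut to equal length by −log10 p, the sites fell to 7 and the genes found in every list to 23. The same counts were not made for all protein-coding genes, so no background can be set beside them.

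At the 18 shared sites the lists held 5 to 39 reads each, and 17 sites had at least 10 reads in every list. The median distance between the outermost summits of a site was 49 bp, and at 10 sites they were within 50 bp, taking each list's strongest peak. At 14 sites the peaks of all lists had a base in common; at the other 4 (EIF3F, EIF3L, EIF4EBP2 and the second site of EIF2S1) a peak of 1 list joined those of the others. The q-value was under 0.05 in 2 lists at 2 sites (EIF1AX and EIF5), in 1 list at 5 sites and in none at 11. The 5 sites, both of EIF2S1 and those of EIF2AK1, EIF3F and EIF4G2, passed in replicate 2. No site passed in replicate 3. In every list 0 of 18 sites passed, against 18 of 2041 shared sites (0.882%) in all protein-coding genes. A strand was known for the genes of 11 shared sites, and at 7 of them (63.6%) every list's summit fell in the first 10% of the gene span, against 408 of 1734 shared sites with strand (23.5%) in all protein-coding genes. In the last 10% there were 0 of 11, a count that allows a share of up to 27.3%, against 15.5%. The number of factor gene sites is small, and the difference was not tested.

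**Figure D2:**
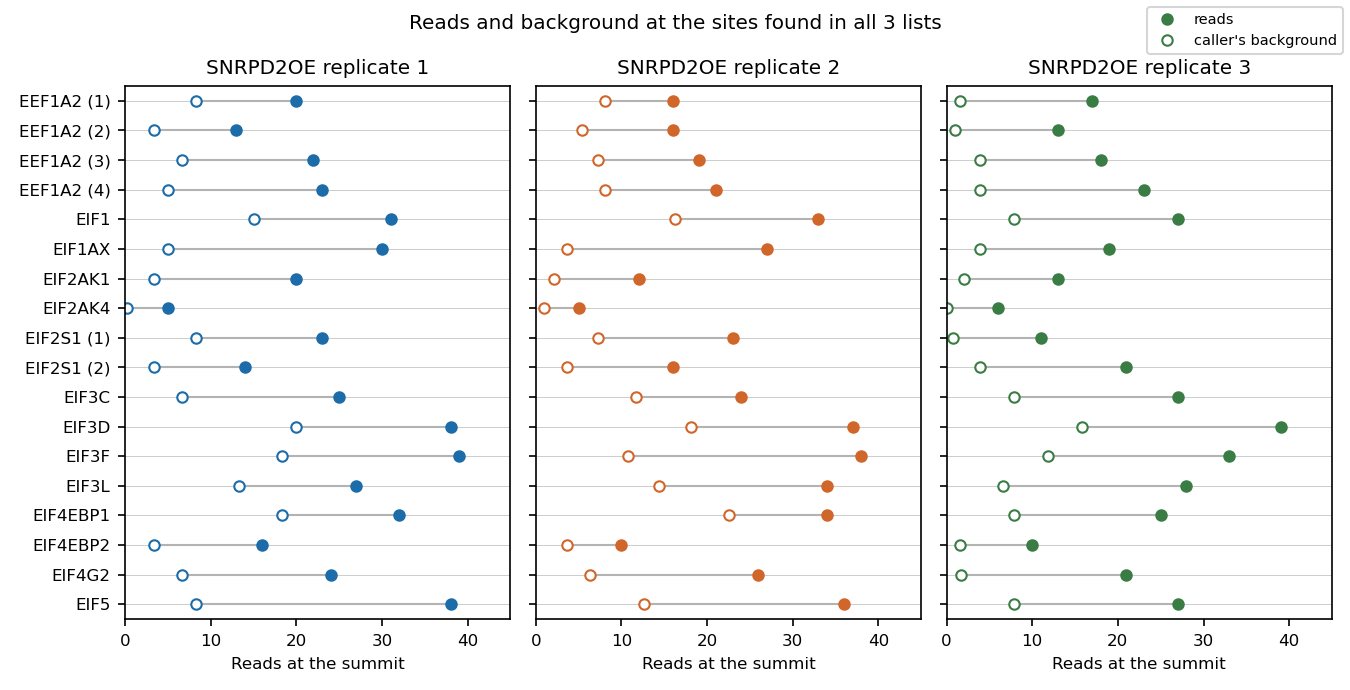
Reads at the summit (filled circles) and the caller's background reads (open circles) at the 18 sites found in all 3 lists, 1 panel per SNRPD2OE replicate, with sites of 1 gene numbered in genome order. Reads ran from 5 at EIF2AK4 to 39 at EIF3D and EIF3F. They lie above the background at each site in each list because the sites are made of called peaks.

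**Figure D3:**
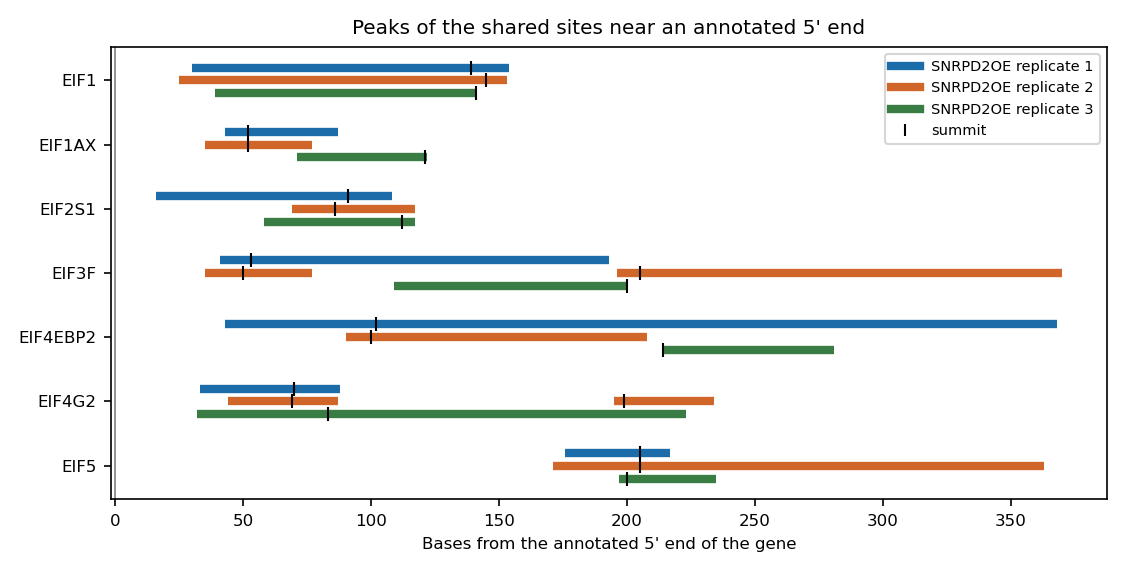
Peaks (bars) and summits (black marks) of the shared sites whose summits lay within 350 bases of the annotated 5′ end, with the distance from that end in bases on the x axis. The summits of EIF1 and EIF5 fall within 6 and 5 bases of each other over the 3 replicates, and EIF3F and EIF4EBP2 show a chain of peaks bridged by the long peak of replicate 1. In EIF3F the chain also runs from the peak of replicate 3 to a second peak of replicate 2.

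The factors that set the start codon gave 3 of the 7 sites near a 5′ end. EIF1AX encodes eIF1A, which binds the small subunit during scanning. Its site at chrX:20141716-20141803 held 30, 27 and 19 reads in replicates 1, 2 and 3, over a background of 5, 3.61 and 3.94 reads, with summits 52, 52 and 121 bases from the annotated start. The −log10 q was 2.98, 9.02 and 0, so replicate 3 did not pass the threshold that the other replicates passed. EIF5, the protein that makes eIF2 hydrolyse its GTP, had a site at chr14:103334408-103334600 with 38, 36 and 27 reads over 8.34, 12.6 and 7.88, and summits 205, 205 and 200 bases from the start. This site also lies in the span of EIF5-DT, a non-coding gene, and reads of the 2 genes cannot be told apart because the peaks have no strand. EIF1, which guards the choice of start codon, had its site at chr17:41688910-41689039 with 31, 33 and 27 reads over 15.0, 16.3 and 7.88, and summits 139, 145 and 141 bases from the start. The lists placed the EIF1 summits within 6 bases of each other, yet no list's q-value passed.

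Within this group of 6 genes, EIF1AD, which holds an eIF1A-like domain, also had summits in all lists, with 17, 7 and 8 reads at its strongest peaks and no shared site. The strongest peak of a gene in a list is the narrow peak with the highest −log10 p, which need not hold the most reads. Reads of a factor gene given without coordinates are those of this peak unless stated otherwise. EIF1B, a close relative of EIF1, was found in replicate 3 alone, with 10 reads over 0.461. EIF5 was the gene of the group with the most summits, 4, 9 and 5, and it had 5 further sites in 2 lists. Another of its sites, at chr14:103338396-103338473, held 37 reads in replicate 2 and 34 in replicate 3.

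eIF2 and its substitutes, the carriers of initiator tRNA, had summits in all lists in 5 of 6 genes. The share of genes found in every list was 60% over all 70 factor genes and 23.8% over all protein-coding genes. A shared site was found in 20% and 7.44%. These shares stand beside the counts of each complex here and below. Each complex has few genes, and differences from these shares were not tested. EIF2S1 encodes eIF2α, the subunit that stress kinases phosphorylate. Its first shared site, chr14:67360344-67360445, held 23, 23 and 11 reads over 8.34, 7.22 and 0.769, with summits 91, 86 and 112 bases from the start. The second, chr14:67364819-67364992, held 14, 16 and 21 reads over 3.34, 3.61 and 3.94, at 4497, 4638 and 4498 bases from the start. At the first site replicates 1 and 2 were equal in reads and replicate 3 was lower, and at the second the peaks of replicates 2 and 3 did not overlap each other and were joined through that of replicate 1. Both sites also lie in the span of GPHN, another protein-coding gene. EIF2S2 (eIF2β) had 10 reads over 0.143 in replicate 1, 5 over 0.903 in replicate 2 and 9 over 0.154 in replicate 3 at its strongest peaks. EIF2S3 (eIF2γ, the subunit that binds GTP) had strongest peaks of 12, 39 and 9 reads over 2.60, 19.9 and 0.384, above EIF2S1 in replicate 2 alone, and 5 sites in 2 lists. Its copy EIF2S3B had 4, 2 and 7 reads, and a second read number also met the tolerance for the value of replicate 3. Since reads of such copies can be split or shared by the aligner, the values of this pair are uncertain. EIF2D, an alternative tRNA carrier, had 10, 8 and 9 reads over 1.67, 0.903 and 0.261, where a second read number also met the tolerance in replicate 1. EIF2A, another alternative carrier, was found in replicates 2 and 3 with 9 and 12 reads.

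eIF2B, the complex that reloads eIF2 with GTP, had no shared site in its 5 genes, although 3 of them (EIF2B1, EIF2B2 and EIF2B3) had summits in every list. EIF2B2 (the β subunit) had 22, 27 and 19 reads over 6.67, 8.13 and 3.94 at its strongest peaks and 5 sites in 2 lists. EIF2B3 (γ) had 14, 21 and 15 reads over 3.34, 5.42 and 0.138 in a span of 136074 bp, where replicate 2 placed 19 summits. EIF2B1 (α) had 10, 2 and 12 reads, the first of which had a second possible read number. EIF2B5, the catalytic ε subunit, was found in replicates 2 and 3, and EIF2B4 (δ) in replicate 2 alone.

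The kinases that phosphorylate eIF2α lower initiation in stressed cells. Of the 4 genes, EIF2AK1, the heme-regulated kinase, had the most reads and a shared site at chr7:6040892-6041198 with 20, 12 and 13 reads over 3.34, 2.09 and 2, and its summits spread over 246 bp. EIF2AK4 (GCN2, which senses amino acid shortage) had one at chr15:39987967-39988070, 53.1% of the way along a span of 101477 bp. It held 5, 5 and 6 reads over 0.195, 0.903 and 0.0615, the lowest reads of any shared site, with summits within 21 bp. EIF2AK2 (PKR, activated by double-stranded RNA) had 5, 5 and 3 reads at its strongest peaks. The replicate 2 peak of EIF2AK2 stood over a background of 0.0361 reads, with a −log10 p of 11.5, although it rests on 5 reads. EIF2AK3 (PERK, the kinase of endoplasmic reticulum stress) was found in replicates 1 and 2, with 2 reads each at its strongest peaks. Its most reads at any narrow summit were 3 and 6.

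eIF3, the largest initiation factor, had summits in all lists in 10 of 14 genes (EIF3A, EIF3B, EIF3C, EIF3D, EIF3F, EIF3G, EIF3H, EIF3I, EIF3L and EIF3M) and shared sites in 4. Over all 70 factor genes these shares were 60% and 20%, and over all protein-coding genes 23.8% and 7.44%. EIF3F had its site near the 5′ end, at chr11:7987372-7987707, with 39, 38 and 33 reads over 18.3, 10.8 and 11.8. The strongest summits of replicates 1 and 2 lay 53 and 50 bases from the start, and that of replicate 3 lay 200 bases from it. The strongest peaks of replicates 2 and 3 were joined through the long peak of replicate 1. A weaker peak of replicate 2, with 24 reads and its summit 205 bases from the start, overlapped that of replicate 3. The q-value passed in replicate 2 alone, with a −log10 q of 4.99. EIF3D, a subunit that can itself bind the cap, had a site inside the gene at chr22:36523919-36524007, between 5223 and 5230 bases from the start. It held 38, 37 and 39 reads over 20, 18.1 and 15.8, a nearly equal number in each replicate, and summits within 7 bp, but no q-value passed. EIF3L had 27, 34 and 28 reads over 13.3, 14.4 and 6.61 at chr22:37877753-37878166, with summits up to 200 bp apart and peaks of replicates 1 and 3 joined through replicate 2. EIF3C, a core subunit, had 25, 24 and 27 reads over 6.67, 11.7 and 7.88 at chr16:28727052-28727211, 81.6% to 81.7% of the way along its span.

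EIF3CL is a near-identical copy of EIF3C, so the values of both genes are uncertain. EIF3CL had no narrow summit in replicate 1 and strongest peaks of 36 and 31 reads over 11.7 and 1.08 in replicates 2 and 3. The peaks of replicates 2 and 3 overlapped at chr16:28403558-28403680, with a −log10 q of 3.43 and 3.82. EIF3I had the most reads of the complex, 52, 65 and 52 over 30, 36.1 and 15.8 at its strongest peaks. These strongest peaks were at different places. At chr1:32231188-32231341 replicates 1 and 2 met with 52 and 42 reads, and at chr1:32226172-32226280 replicates 2 and 3 met with 46 and 52 reads. EIF3H, in the longest span of the complex (124245 bp), had 10, 22 and 16 reads over 1.82, 3.61 and 0.246, with the q-value under 0.05 in replicates 2 and 3. EIF3A, the scaffold subunit, had 3, 16 and 27 reads at its strongest peaks, which lay at different places. At chr10:119060724-119060819 replicates 2 and 3 met with 27 reads each. EIF3B had 23, 21 and 20 reads, EIF3G 21, 27 and 30, and EIF3M 8, 33 and 28. EIF3E, EIF3J and EIF3K each had summits in 2 lists only.

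The cap-binding group differed between its parts. EIF4G2, a scaffold related to eIF4G that lacks the eIF4E-binding part, had a site near its start, chr11:10808692-10808894, with 24, 26 and 21 reads over 6.67, 6.32 and 1.65. Its summits lay 70, 69 and 83 bases from the start, with a −log10 q of 0.354, 3.88 and 0.55. EIF4G1 and EIF4G3, the other scaffolds, also had summits in every list, with 24, 19 and 14 reads and 5, 4 and 12 reads at the strongest peaks, and 4 and 6 sites in 2 lists. EIF4G3 spans 370606 bp and had 10, 56 and 6 summits.

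Among eIF4E and its binding proteins 6 of 8 genes were found in every list, against 60% of all factor genes and 23.8% of all protein-coding genes. EIF4EBP2, a repressor that holds eIF4E, had a site near its start at chr10:70404188-70404513 with 16, 10 and 10 reads over 3.34, 3.61 and 1.54. Its summits lay 102, 100 and 214 bases from the start, and a second read number also met the tolerance in replicate 3. EIF4EBP1, another such repressor and the gene with the most reads in the group, had 32, 34 and 25 reads over 18.3, 22.6 and 7.88 at chr8:38057123-38057254. Reads there were 1.74, 1.51 and 3.17 times the background, the smallest ratios of any shared site in replicates 1 and 2. EIF4E, the cap-binding protein, had 4, 9 and 14 reads over 0.221, 0.903 and 0.154 at its strongest peaks, which lay at different places. At chr4:98901877-98901963 replicates 2 and 3 met with 19 and 14 reads and a −log10 q of 1.57 and 1.89. EIF4E2, a relative that binds the cap without eIF4G, had 14, 6 and 8 reads, EIF4E3 3, 4 and 1, and EIF4ENIF1, which carries eIF4E into the nucleus, 4, 4 and 5.

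In the helicase group the counts differed between lists. Of EIF4A1, EIF4A2, EIF4A3, EIF4B and EIF4H, 4, 5 and 1 genes had a summit outside snoRNA genes in replicates 1, 2 and 3. The share over all protein-coding genes was 45.2%, 76.7% and 30.2%, also lowest in replicate 3. The group has 5 genes only, and the difference was not tested. EIF4B alone was found in every list. EIF4B, a cofactor of the helicase, had 23, 15 and 15 reads over 6.67, 4.30 and 0.615 at its strongest peaks. EIF4A1, the main helicase and the gene with the most reads of the group in replicates 1 and 2, had 45 reads over 23.4 in replicate 1 and 40 over 25.3 in replicate 2, which overlapped at chr17:7578655-7578900. That stretch also belongs to the readthrough gene SENP3-EIF4A1. EIF4A3, a helicase of the exon junction complex that marks spliced mRNA, had 27 and 33 reads over 11.7 and 12.6 in replicates 1 and 2 and no narrow summit in replicate 3. EIF4H, another cofactor, had a site near its start, chr7:74174408-74174470, with 33 and 31 reads in replicates 1 and 2, and nothing narrow in replicate 3.

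Of the factors that act at subunit joining, EIF6, which keeps the large subunit apart, was found in every list with 26, 17 and 20 reads over 11.7, 3.61 and 0.999. EIF5B, the joining GTPase, was found in replicates 2 and 3 with 4 and 9 reads. The eIF5A genes, whose products carry the modified lysine hypusine, had no gene in all 3 lists. EIF5A had 33 reads over 20.8 in replicate 2, EIF5A2 had 5 and 4 reads in replicates 1 and 2, and EIF5AL1, a copy of EIF5A, had 10 reads in replicate 3. Reads of EIF5A and EIF5AL1 may be shared, and both values are uncertain.

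In the eEF1 complex EEF1A2 held 4 of the 18 shared sites, more than any other factor gene. EEF1A2 is the relative of EEF1A1 known from neurons and muscle. The 4 sites lay at chr20:63488929-63489121, chr20:63493129-63493318, chr20:63494816-63495086 and chr20:63495845-63496031. The first held 20, 16 and 17 reads over 8.34, 8.13 and 1.54, and the second 13, 16 and 13 over 3.34, 5.42 and 0.999. The third held 22, 19 and 18 reads over 6.67, 7.22 and 3.94, and the fourth 23, 21 and 23 over 5, 8.13 and 3.94. At each site the replicates lay within 4 reads of each other, and at none did a q-value pass. EEF1D, an exchange factor subunit, was the gene of the complex with the largest sum of reads over the lists. It had 24, 38 and 4 reads at its strongest peaks, which lay at different places. At chr8:143580518-143580718 replicates 1 and 2 met with 35 and 38 reads, and at chr8:143581214-143581324 with 24 and 20 reads. At chr8:143589917-143590069 replicates 1 and 3 met with 7 and 4 reads. EEF1G and EEF1B2, the other exchange factor subunits, were found in replicate 2 alone, EEF1G with 68 reads over 41.5 and EEF1B2 with 28 over 9.93. EEF1E1, a component of the tRNA synthetase complex, had 1 read in replicate 2 and 19 reads over 0.922 in replicate 3.

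EEF2, the translocation factor, had 65, 64 and 47 reads over 40, 31.6 and 11.7 at its strongest peaks, among the highest of the factor genes. It had 2, 8 and 2 narrow summits, and no peak of 1 list overlapped a peak of another. EEF2K, the kinase that inactivates eEF2, had 4 and 3 reads in replicates 1 and 2 and no narrow summit in replicate 3, with 3 sites in both. Among the genes for enzymes that methylate eEF1A or eEF2, EEF1AKMT1, EEF1AKMT2 and EEF2KMT were found in every list and none had a shared site. EEF2KMT had the most reads, 9, 7 and 10 over 1.17, 0.975 and 0.154. At their strongest peaks EEF1AKMT2 had 7, 1 and 6 reads, and EEF1AKMT1 5, 1 and 3. EEF1AKMT4 and the readthrough gene EEF1AKMT4-ECE2 share their start and the same peak of 7 reads in replicate 2.

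Position along the span could be read for 56 of the 70 genes. The first 10% of the span held 17.8% ± 2.09 of narrow summits in the factor genes, against 15.1% ± 3.13 in all protein-coding genes (mean ± SD, n = 3 lists). The last 10% held 13.8% ± 4.99 against 18.0% ± 0.917. Both differences were within the spread between lists. Within 500 bp of the start lay 14.5%, 8.89% and 13.8% of the summits in replicates 1, 2 and 3, against 8.75%, 4.11% and 13%, and within 500 bp of the 3′ end 4.03%, 3.89% and 8.05%, against 3.47%, 2.89% and 5.05%. The share near the start was thus higher in the factor genes in replicates 1 and 2, while in replicate 3 the shares were close. Near the 3′ end it was also higher in each list. A window of 500 bp covers more of a short span, and the median span was 20500 bp in the factor genes, against 24100 bp. Span lengths were not matched, so these shares do not show where along a gene the summits gather. Among peaks of at least 10 reads the first 10% held 22.0% ± 2.89 in the factor genes, against 21.4% ± 3.25.

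**Figure D4:**
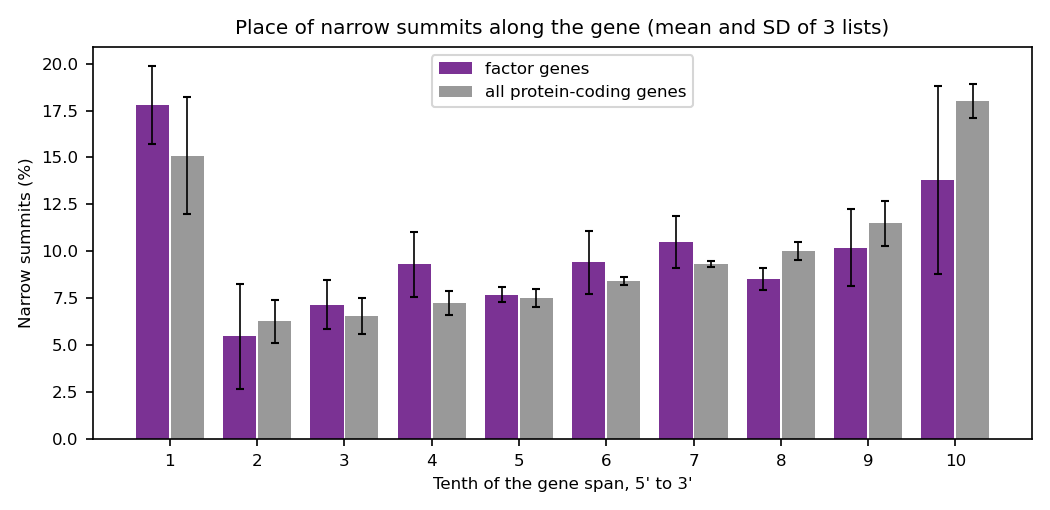
Share of narrow summits outside snoRNA genes (y axis, percent) in 10 equal stretches of the gene span from 5′ to 3′ (x axis), factor genes on the left of each pair and all protein-coding genes on the right. Bars are means and whiskers SDs of the 3 lists, and the whiskers overlap in the first 10% (17.8% against 15.1%).

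snoRNA genes lay inside 9 of the factor genes, 17 in all, and were set apart from the counts above. snoRNAs guide the chemical modification of other RNAs: box C/D snoRNAs (SNORD) guide methylation and box H/ACA snoRNAs (SNORA) guide pseudouridylation. A narrow summit of any list fell in 6 of the 17 (35.3%), against 16.7% of the 618 snoRNA genes inside protein-coding gene spans and 11.6% of all 1199 annotated snoRNA genes. There were 0, 4 and 4 summits in replicates 1, 2 and 3, so none of the 17 was found in all 3 lists, against 1.46% of the 618 and 0.834% of the 1199. With 17 genes and neighbours in the same 2 hosts, EIF4A1 and EIF4A2, holding 5 of the 6, the difference was not tested. SNORA63, in EIF4A2 at chr3:186787299-186787433, held 53 reads over 29.8 in replicate 2 and 55 over 5.53 in replicate 3, a deposited fold of 1.75 and 6.22. Reads were nearly equal in these replicates and the background was not, and the −log10 q was 0.585 and 4.03. SNORD10, in EIF4A1 at chr17:7576811-7576958, held 53 reads over 26.2 in replicate 2 and 61 over 30.4 in replicate 3, a fold of 1.99 and 1.89. The other 4 had a summit in 1 list each: SNORA48 in EIF4A1 (74 reads) and SNORA41 in EEF1B2 (21 reads) in replicate 2, and SNORA81 (30 reads) and SNORA4 (34 reads) in EIF4A2 in replicate 3. In replicate 3 each narrow summit of EIF4A1 and EIF4A2 was inside a snoRNA gene. No peak with its summit elsewhere in a factor gene touched a snoRNA gene.

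**Figure D5:**
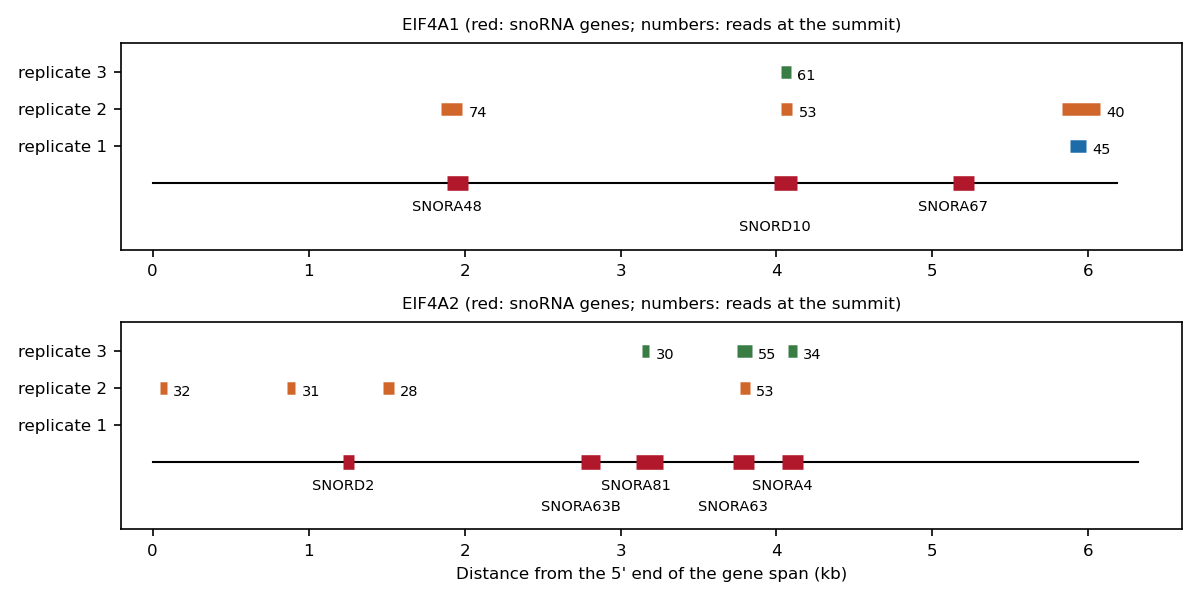
EIF4A1 (top) and EIF4A2 (bottom) with their snoRNA genes in red and the narrow peaks of each SNRPD2OE replicate as coloured bars, against the distance from the 5′ end of the gene span in kb, with the reads at each summit printed beside the bar. Replicate 3 has peaks on snoRNA genes only, 1 in EIF4A1 and 3 in EIF4A2, while the peaks of replicate 1 and some of replicate 2 lie elsewhere.

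The SNORA81 peak of replicate 3 also lies in the hairpin of MIR1248, a microRNA gene that overlaps this snoRNA. The hairpin, chr3:186786672-186786777 on the plus strand, is shown to place the peak against the mature microRNA, with the bases under the peak in capitals.
MIR1248 hairpin: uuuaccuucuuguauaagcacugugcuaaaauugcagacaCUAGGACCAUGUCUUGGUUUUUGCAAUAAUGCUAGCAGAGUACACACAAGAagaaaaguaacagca
In the mature form the seed, bases 2 to 8, is in capitals.
hsa-miR-1248: aCCUUCUUguauaagcacugugcuaaa
The summit was at base 55 of the hairpin, and the peak (186786712 to 186786762) did not reach the mature sequence (186786675 to 186786701). The sequences are from RefSeq.

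Other translation genes were taken from a list of 41 genes for termination, recycling, further initiation factors, regulators and selenocysteine or mitochondrial factors. They had narrow summits in 32, 38 and 31 genes in replicates 1, 2 and 3 and in all lists in 24 (58.5%), against 23.8% of all protein-coding genes, with a median span of 28100 bp. A site shared by all lists was found in 10 (24.4%), against 7.44%. GSPT1, which encodes the termination factor eRF3a, had 30, 22 and 25 reads over 15.0, 4.66 and 7.88 at its site. MTOR, the kinase that controls the binding proteins of eIF4E, had 5 shared sites with 5 to 16 reads, and LARP1, the binder of pyrimidine tracts, had 3 with 7 to 15 reads. PPP1R15A, which directs removal of phosphate from eIF2α, had 16, 14 and 11 reads over 5, 1.81 and 0.615. GCN1, which activates the kinase GCN2, had 2 shared sites with 7 to 16 reads, and CYFIP1, a binder of eIF4E, 2 with 5 to 12. MKNK1, a kinase of eIF4E, had 10, 7 and 7 reads at its site, DPH2, which helps make the diphthamide of eEF2, 14, 13 and 13, EEFSEC, the elongation factor for selenocysteine, 5, 7 and 10, and GFM1, a mitochondrial elongation factor, 4, 5 and 7.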

How the data were processed

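RIP-seq peak lists of 3 SNRPD2OE samples of HEK293T cells were used, and the Ctrl samples were not analysed here. Per the submitters' processing notes the tools were cutadapt 4.2, STAR 2.7.10b and MACS2 2.2.9.1 and the build GRCh38 (hg38); for the background library, caller options, duplicates and strand the status is "not given in the sources used here". Each list was called per sample. The deposited score equals the whole part of 10 times the deposited −log10 p-value in each peak. The deposited fold is the ratio of scaled pileup plus 1 to background plus 1, as the recovered reads bear out, and the deposited −log10 p-values (unadjusted) and −log10 q-values were used as the authors gave them, to describe and filter peaks within a list.

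Reads at a summit were recovered as the whole number that best fits fold and p with a tolerance of 0.002 on −log10 p, with 1 read worth 0.599, 1 and 0.254 units of height. A second number also met the tolerance for 9.48%, 0.501% and 16.6% of narrow peaks, and for 24 peaks in the factor genes; the best match was used. On 3000 simulated peaks per list, 99.9%, 99.967% and 99.9% of read numbers were recovered. Summits were placed in RefSeq gene spans (GRCh38.p14), which carry no exons here, so exon, intron and UTR were not assigned; strand came from the RefSeq promoter table. A site is a chain of narrow peaks that overlap by at least 1 bp. A gene's value in a list is that of its narrow peak with the highest −log10 p. All protein-coding genes include the factor genes. Python 3.11.15 with pandas 2.3.3, numpy 2.4.6, scipy 1.17.1 and matplotlib 3.10.9 was used.

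Members and lists were chosen with earlier results of these data known. The genes named are all factor genes found in every list, the gene with most reads of each of 13 complexes, snoRNA genes found in 2 lists, genes found in none, genes of the other translation list with a shared site, and all shared sites; other genes named were chosen after their values were seen. Alternatives were the width limit, q-value, read minimum, list length, left-out replicates, small RNA separation, overlapping genes, overlap rule and end window.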

Additional observations from a re-analysis of the deposited data

Results flagged for a closer look

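Replicate 3 held 71 wide peaks (over 1000 bp) with summits in factor genes, in 24 genes, against 0 in replicates 1 and 2, and 5 genes had only wide summits there. They were left out of the comparisons above, and their cause was not tested.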

How the results depend on the processing

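The count of genes found in all 3 lists (42) was 39 to 50 under 9 of 12 alternatives. These include the runs without 1 replicate (42 to 50), where a gene needed a summit in both remaining lists only. That is a weaker condition, under which the count cannot fall. The others of the 9 kept all 3 lists and gave 39 to 47. The count was 0 with q-values under 0.05, 26 with at least 10 reads, and 23 with lists of equal length. Counts in all 3 lists under these alternatives were not made for all protein-coding genes, so they have no background beside them. With q-values under 0.05 the genes per replicate were 4, 31 and 8, the shared sites 0, the snoRNA genes with a summit 2, and the share in the first 10% of the span 53.0%, from few peaks. With at least 10 reads that share was 22.0%. With lists of equal length, replicates 1 and 2 had 33 and 41 genes, the shared sites were 7 and the first 10% held 25.3%. The shared sites (18) were 4 with reciprocal overlap of 50%, 11 with summits within 50 bp, counting any peak of a list at the site, and 14 with a base shared by all lists, an alternative chosen after seeing the data. Leaving out 1 replicate gave 36 to 70 sites in both remaining lists (36 without replicate 2, 47 without replicate 1, 70 without replicate 3), which must meet a weaker condition, 42 to 50 genes, 4 to 6 snoRNA genes, 16.7% to 18.7% in the first 10% and 10.9% to 15.5% in the last. With all small RNA genes and pseudogenes set apart, 12 such genes held a summit. Windows of 20% at the start and end held 23.3% and 24.0%, and windows of 500 bp at the start and end 12.4% and 5.32%. No paired analysis was possible because the samples analysed were of 1 group.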

Other observations

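Small RNA genes other than snoRNAs also lay in the factor genes. In EIF1AX the scaRNA-like gene SCARNA9L held a summit with 11 reads in replicate 1, for which a second read number also met the tolerance, and 12 reads in replicate 2. In EEF1E1, SCARNA27 held a summit with 5 reads in replicate 3.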
